A study of Mus musculus with 20 samples.

Results

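Smooth muscle cells shorten when myosin filaments pull on actin filaments, and they build this machinery from isoforms that other cells of adipose tissue hardly use. A rise in calcium activates myosin light chain kinase, which phosphorylates the regulatory light chain of myosin, while calponin and transgelin bind the actin filament, and desmin links the filaments into a network. In white fat these genes are carried mainly by the walls of arteries and veins. Next to the epididymal fat pad lie the epididymis and the vas deferens, ducts that have a muscular coat of their own.

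The genes described here are 10 contractile genes of smooth muscle, present among the 14776 genes of the deposited table. They are the actins Actg2 and Acta2, the myosin heavy chain Myh11, the myosin regulatory light chain Myl9, the kinase Mylk, the actin-binding genes Cnn1, Tagln and Smtn, the actin nucleator Lmod1, and the intermediate filament gene Des. All 10 were found by symbol, and all 10 passed the filter on low values in every comparison. They were chosen by what these genes are known to do and by the FPKM values of HFD against NC, in which Actg2 fell most, so the values of that comparison are given as a description, and counts of calls in it are no test of the members.

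Poly(A) RNA was sequenced from epididymal fat (eWAT) taken from 20 C57BL/6J mice, all male and 6 weeks old at the start. The 6 NC mice ate normal chow, and the sources used here do not make clear whether they were given gavage. If they were not, diet and gavage cannot be told apart in HFD against NC. The 7 HFD mice ate a high-fat diet for 14 weeks and for 6 further weeks while given saline by gavage, and the 7 SZ-A mice ate the same diet and received SZ-A, the alkaloids of Ramulus Mori (Sangzhi), a mulberry twig preparation, by gavage over those 6 weeks. Levels are FPKM, the read pairs of a gene scaled to its length and to the depth of the library, so that levels can be set side by side between genes. In bulk tissue, fewer smooth muscle cells and less RNA per cell cannot be told apart.

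Some mice stood apart, and values without them are given beside the results they move most. NC 6 went against its tissue label. Its level of Adipoq, the adiponectin gene of adipocytes, was 26.6 FPKM against 859 to 2278 FPKM in the other NC mice, and the summed level of 10 adipocyte markers was 487 FPKM against a median of 14109 FPKM in NC. In the same mouse Ly6g5b reached 2702 FPKM and Teddm2 524 FPKM, genes of the list of epididymis and vas deferens epithelium. SZ-A 2 had 352 FPKM of Ly6g5b and 189.9 FPKM of Teddm2, and the other 18 mice stayed at or below 0.930 FPKM and 1.40 FPKM. Only 6 of the 32 genes of that list were in the table, and their summed level ran from 175 to 7203 FPKM in NC, from 179.9 to 273 FPKM in HFD and from 198 to 2279 FPKM in SZ-A mice. Of these, Aqp9 had 0.406 to 51.4 FPKM in NC, 0.311 to 0.612 FPKM in HFD and 0.369 to 23.6 FPKM in SZ-A. It was high beyond NC 6 and SZ-A 2, with 51.4 FPKM in NC 1, 36.6 FPKM in NC 2, 22.7 FPKM in NC 5 and 23.6 FPKM in SZ-A 7. The epithelial marker Krt18 was high in more mice as well. It ranged from 5.85 to 454 FPKM in NC, from 0.706 to 3.23 FPKM in HFD and from 0.0380 to 168 FPKM in SZ-A mice. The mice NC 2, NC 5 and SZ-A 7 were set apart by the contractile genes themselves, as described below.

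Whether reads can tell the actins apart bears on Actg2, whose product differs little from that of the other actins. Over the coding sequence, Actg2 shared 84.4% of its bases with Acta2 and 83.0% with the cytoplasmic actin Actb, and the longest run identical to Acta2 was 29 bases. No window of 150 bases of the Actg2 or the Acta2 transcript occurred in a transcript of another gene. The stretches below show the same 90 coding bases of Actg2 and Acta2, which lie in a single exon of each gene in GRCm38, with capitals where a base of Acta2 differs from Actg2. They are shown because telling reads of Actg2 from those of another actin rests on such differences.
Actg2, coding bases 454 to 543, chr6:83520726-83520815, minus strand: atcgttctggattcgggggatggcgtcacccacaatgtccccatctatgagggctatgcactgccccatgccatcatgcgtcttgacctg
Acta2, coding bases 457 to 546, chr19:34246148-34246237, minus strand: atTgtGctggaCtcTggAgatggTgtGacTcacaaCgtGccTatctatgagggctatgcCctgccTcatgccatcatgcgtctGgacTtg
In these 90 bases, Acta2 differed from Actg2 at 15 positions.

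Actg2 (ENSMUSG00000059430, chr6:83512905-83536265, minus strand) codes for the smooth muscle gamma-actin, known for its use in the muscle of gut, bladder and genital tract. Its levels, as lowest, median and highest, were 5.84, 165.9 and 1015 FPKM in NC, 0.183, 0.482 and 3.22 FPKM in HFD, and 0.421, 1.46 and 205.5 FPKM in SZ-A mice. Every HFD mouse was below every NC mouse. In the SZ-A group 5 mice lay between 0.421 and 1.72 FPKM, within the HFD range, and the other two, SZ-A 2 with 205.5 and SZ-A 7 with 126.1 FPKM, lay in the NC range. The HFD values rest on 5 to 89 reads a mouse, against 146 to 23038 reads in NC. Within NC the values spread 173.9-fold. Without NC 6 the spread was 66.8-fold and the median 48.2 FPKM.

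Acta2 (ENSMUSG00000035783, chr19:34241090-34255590, minus strand) codes for the alpha-actin of vascular smooth muscle and was the highest of the 10 genes in HFD. Its levels were 21.4, 235 and 759 FPKM in NC, 48.9, 157 and 282 FPKM in HFD, and 118, 171 and 395 FPKM in SZ-A mice. The 3 groups overlapped, and the lowest of all 20 values was that of NC 6. Without NC 6 the lowest NC mouse had 190.6 FPKM, which HFD 2 alone exceeded among the HFD mice.

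Myh11 (ENSMUSG00000018830, chr16:14194535-14291372, minus strand) codes for the myosin heavy chain that marks mature smooth muscle. Its levels were 5.82, 38.6 and 266 FPKM in NC, 1.81, 4.66 and 8.82 FPKM in HFD, and 7.54, 11.0 and 97.2 FPKM in SZ-A mice. The SZ-A mice lay close together, 6 of the 7 between 7.54 and 11.8 FPKM, and 5 of the 7 exceeded the highest HFD mouse.

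Myl9 (ENSMUSG00000067818, chr2:156775420-156781658, plus strand) codes for the regulatory light chain. Its levels were 27.7, 140.5 and 382 FPKM in NC, 13.6, 28.0 and 41.8 FPKM in HFD, and 44.6, 56.5 and 197 FPKM in SZ-A mice. It was the single member in which all 7 SZ-A mice were above all 7 HFD mice. The lowest NC value was again that of NC 6, and without it NC began at 88.1 FPKM.

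Mylk (ENSMUSG00000022836, chr16:34745210-35002420, plus strand), the kinase gene, had levels of 11.0, 18.8 and 111 FPKM in NC, 3.31, 5.45 and 10.4 FPKM in HFD, and 4.87, 8.44 and 39.7 FPKM in SZ-A mice. All HFD mice were below all NC mice, and 5 of the 7 SZ-A mice were below them as well.

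Cnn1 (ENSMUSG00000001349, chr9:22099216-22109630, plus strand) codes for calponin, which holds back the actin-activated ATPase of myosin. Its levels were 5.12, 36.5 and 245 FPKM in NC, 0.142, 0.298 and 1.71 FPKM in HFD, and 0.834, 1.94 and 128 FPKM in SZ-A mice. As with Actg2 and Mylk, the NC and HFD ranges were apart. In the SZ-A group 6 of the 7 mice lay between 0.834 and 7.34 FPKM, and SZ-A 7 stood alone at 128 FPKM. The lowest HFD value rests on 6 reads.

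Smtn (ENSMUSG00000020439, chr11:3517523-3540612, minus strand), the smoothelin gene, had levels of 1.85, 17.5 and 32.6 FPKM in NC, 4.70, 8.40 and 11.6 FPKM in HFD, and 5.80, 11.9 and 20.4 FPKM in SZ-A mice. The groups all overlapped. NC 6 had the lowest value of all mice, and SZ-A 2 the lowest of its group.

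Tagln (ENSMUSG00000032085, chr9:45929619-45936058, minus strand) codes for transgelin, an abundant protein of smooth muscle, yet its levels were 0.242, 0.995 and 8.83 FPKM in NC, 0.359, 0.539 and 0.789 FPKM in HFD, and 0.302, 0.687 and 2.42 FPKM in SZ-A mice. They were the lowest of the 10 genes at the medians of NC and SZ-A and among the lowest in HFD, and rest on 7 to 334 reads a mouse. Of its exon bases, 67.9% lie in exons of Gm48529, an antisense gene on the opposite strand, so reads there cannot be told apart without strand, and the sources used here do not say whether counting used it. Its values are therefore uncertain as a measure of transgelin. The same holds to a smaller extent for Smtn, with 16.3% of exon bases in such an overlap, Mylk with 6.85% and Des with 5.86%, while the other 6 members had none.

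Lmod1 (ENSMUSG00000048096, chr1:135324807-135368065, plus strand) codes for leiomodin, which starts actin filaments in smooth muscle. Its levels were 0.765, 6.38 and 17.0 FPKM in NC, 0.575, 1.60 and 2.68 FPKM in HFD, and 1.65, 3.46 and 9.56 FPKM in SZ-A mice. In the SZ-A group 6 of the 7 mice exceeded the highest HFD mouse, and the exception was SZ-A 2.

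Des (ENSMUSG00000026208, chr1:75360329-75368579, plus strand), the desmin gene, had levels of 7.57, 23.8 and 105 FPKM in NC, 7.43, 9.33 and 11.8 FPKM in HFD, and 10.3, 11.2 and 57.2 FPKM in SZ-A mice. Besides SZ-A 7, the SZ-A mice lay between 10.3 and 13.5 FPKM, and they overlapped with the HFD mice.

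**Figure D1:**
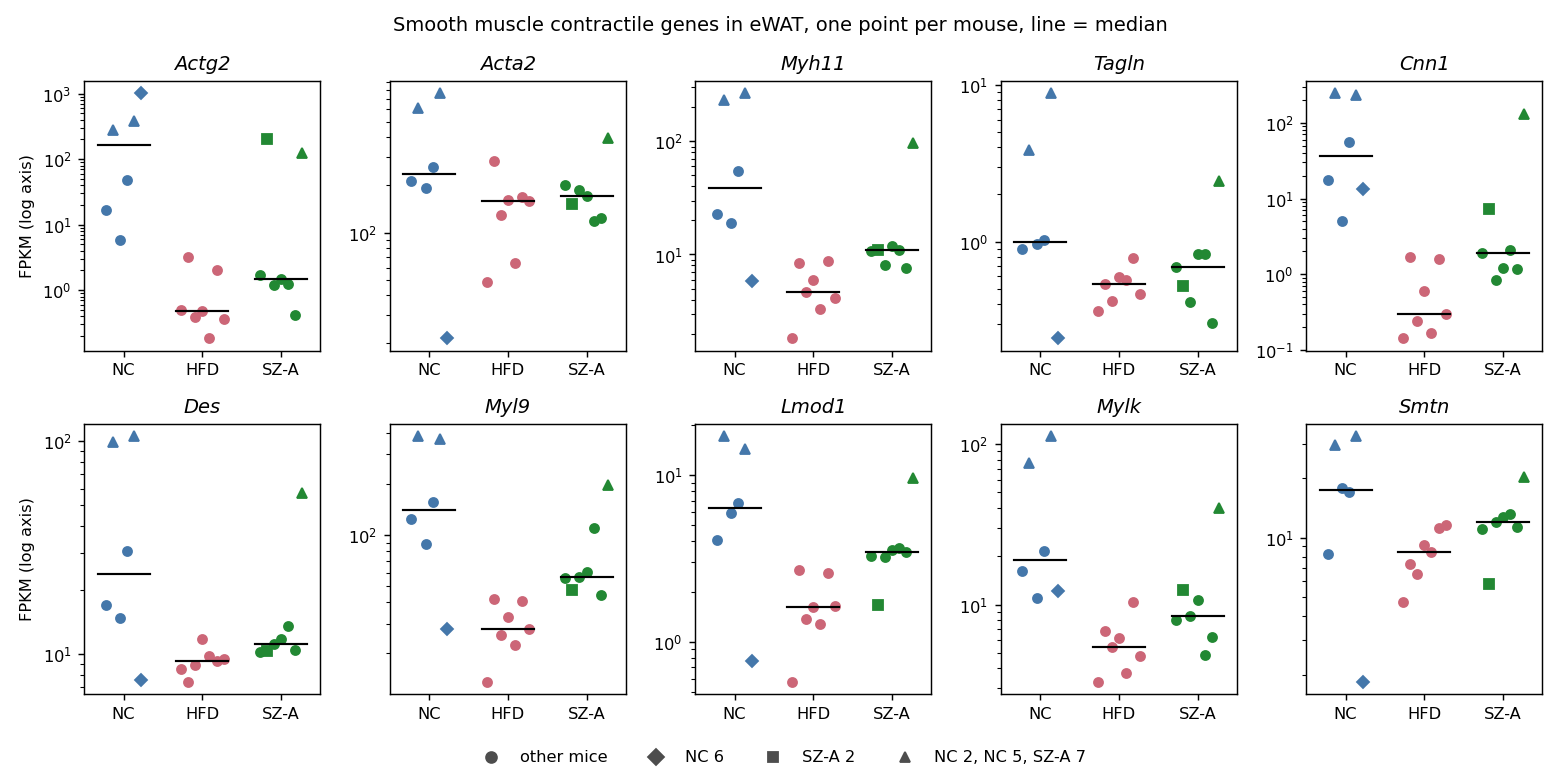
FPKM of the 10 contractile genes (log axis, a panel each) in the 6 NC, 7 HFD and 7 SZ-A mice, 1 point a mouse, with the group median as a line. Triangles (NC 2, NC 5, SZ-A 7) are the 3 highest mice in 9 of the 10 panels, and the diamond (NC 6) and the square (SZ-A 2) are high in Actg2, at 1015 and 205.5 FPKM.

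In all 10 genes the medians ran in the order NC, SZ-A, HFD. The spread within groups was wide where this order holds, and it differed by group. The SD of log2(FPKM + 1), taken over the mice of a group, had a median of 1.44 over the members in NC against 0.37 over the 14716 genes that averaged 0.1 FPKM or more. In HFD these values were 0.50 and 0.19, and in SZ-A mice 0.82 and 0.32. Without NC 6 the NC values were 1.19 and 0.31, and without SZ-A 7 the SZ-A values were 0.35 and 0.33. The SD was larger in NC than in HFD for all 10 members and larger in SZ-A than in HFD for 9 of them, the exception being Acta2. The first held for all 10 without NC 6 as well, and the second rested on SZ-A 7, without which it held for 3 members, Actg2, Cnn1 and Tagln.

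The same mice were high throughout. NC 2, NC 5 and SZ-A 7 were the 3 highest of the 20 mice for 9 of the 10 members, and for Actg2 the order from the top was NC 6, NC 5, NC 2, SZ-A 2 and SZ-A 7. Over all 14776 genes, 74 (0.501%) had these 3 mice on top. The 3 mice were picked from the members, so the 9 are a description and no test against that share. Among the genes that share the apparatus without being members, 9 of 31 did so, namely the tropomyosins Tpm1 and Tpm2, Cald1 (caldesmon), Synm (synemin), Pdlim3, Pgm5, Csrp1 and the myosin phosphatase subunits Ppp1r12a and Ppp1r12b. None of the genes detected from the other 11 lists did, the 11 of the pericyte list and the 12 of the endothelial list included. At a share of 0.501%, lists this short would be likely to hold none, so nothing is read from this. The depth of these 3 libraries, between 17238652 and 17648096 reads on genes, lay inside the range of all mice. At the low end, HFD 1 had the lowest HFD value of 8 members, and it also had the lowest Adipoq of HFD, 222 FPKM. The part of such mixtures in the values was not tested.

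Actg2 and Cnn1 kept close to each other in most mice and parted in NC 6 and SZ-A 2. The ratio of Actg2 to Cnn1, both in FPKM, was between 0.364 and 3.51 in the other 18 mice, across a span of Actg2 from 0.183 to 389.9 FPKM. In NC 6 the ratio was 76.8 and in SZ-A 2 it was 28.0. Both mice combined the high Actg2 with Cnn1 of 13.2 and 7.34 FPKM, Myh11 of 5.82 and 11.1 FPKM and Acta2 of 21.4 and 150.7 FPKM. They were also the mice with the highest Ly6g5b and Teddm2, and with the highest Adgrg2 (420 and 103 FPKM) and Clu (3119 and 1276 FPKM), all genes of the epididymis and vas deferens list. The part of these tissues in the Actg2 values was not tested.

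**Figure D2:**
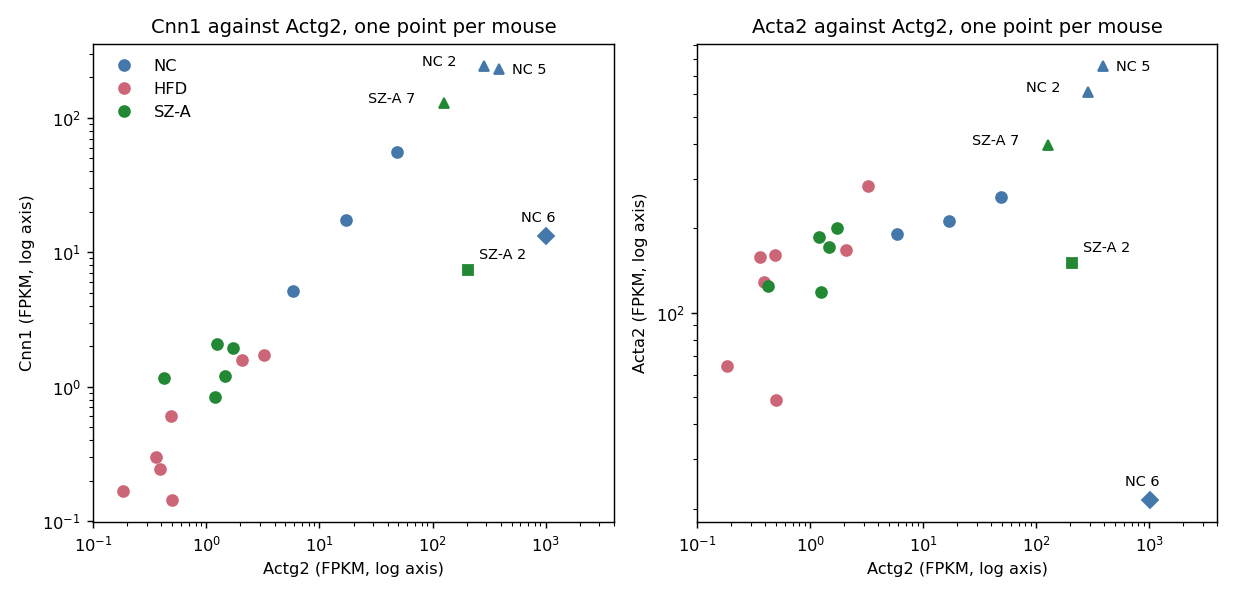
Cnn1 (left) and Acta2 (right) against Actg2 in FPKM, all axes logarithmic, 1 point a mouse, coloured by group. In the left panel 18 mice follow one band with Actg2 to Cnn1 ratios of 0.364 to 3.51, and NC 6 (76.8) and SZ-A 2 (28.0) lie to its right.

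**Figure D3:**
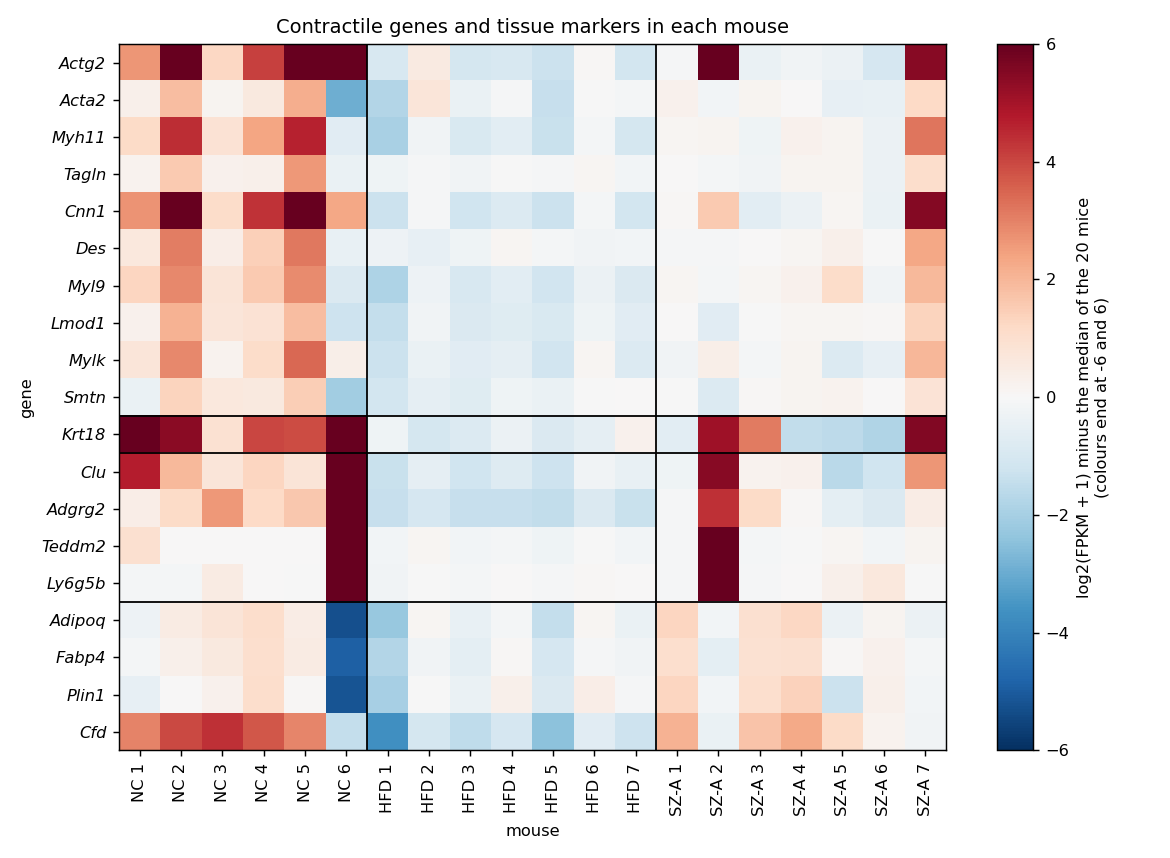
Each cell shows log2(FPKM + 1) of a gene in a mouse minus the median of the 20 mice. The 10 contractile genes are on top, then Krt18, then 4 genes of the epididymis and vas deferens list, then 4 adipocyte genes. Aqp9 and Npc2, the other detected genes of the epididymis and vas deferens list, are not drawn. NC 2, NC 5 and SZ-A 7 are red across the contractile genes, while NC 6 and SZ-A 2 are red in Actg2 and in Ly6g5b (2702 and 352 FPKM).

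As a description, all 10 members were lower in HFD than in NC mice. Log2 fold changes, on the log2(FPKM + 1) scale with the standard error of the limma fit, were -5.70 ± 0.98 for Actg2, -4.72 ± 0.77 for Cnn1, -3.02 ± 0.75 for Myh11, -2.27 ± 0.52 for Myl9 and -2.13 ± 0.50 for Mylk. They were -1.58 ± 0.51 for Des, -1.47 ± 0.44 for Lmod1, -0.85 ± 0.38 for Tagln, -0.79 ± 0.69 for Acta2 and -0.67 ± 0.48 for Smtn. The median over the members was -1.85, against -0.04 over the 14706 genes tested. Since this comparison chose the members, nothing is read from the following counts. An adjusted p under 0.05 with a log2 fold change beyond 1.5 was reached in the lower direction by 6 members, beside 2.54% of all genes tested, and the first criterion alone by 7, beside 20.1%. Just inside the limit of 1.5 stood Des and just outside it Lmod1. The groups did not overlap for 3 members, Actg2, Cnn1 and Mylk, beside 7.77% of all genes in the same direction. Without NC 6 this held for 8 members, all but Acta2 and Smtn, beside 10.4%. Leaving out NC 6 moved Actg2 to -5.01 ± 0.86 and moved the others away from 0, Acta2 to -1.45 ± 0.46 and Smtn to -1.14 ± 0.30. With the mean level of the epithelial markers as covariate, the median over the members was -1.79 and the standard errors were larger. Actg2 then stood at -1.78 ± 1.55 and Cnn1 at -3.12 ± 1.49, closer to 0, while Myh11 stood at -3.04 ± 1.52, Myl9 at -2.44 ± 1.05, Lmod1 at -2.10 ± 0.88 and Acta2 at -1.65 ± 1.39, as far from 0 as before or farther. With the epididymis and vas deferens list in that place the median was -2.61 and Actg2 stood at -3.86 ± 1.08. The epithelial genes moved with the diet themselves, with Krt18 at -5.23 ± 0.79.

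The comparison of SZ-A with HFD asks what the alkaloids changed in mice on the same diet. The SZ-A mice had the higher mean of log2 values for all 10 members, and 3 of them rose by the test: Myl9 by 1.32 ± 0.32 (limma adjusted p = 0.010), Lmod1 by 0.85 ± 0.25 (adjusted p = 0.025) and Myh11 by 1.36 ± 0.47 (adjusted p = 0.047), all as log2 fold changes with standard error. Over all 14695 genes tested, 9.47% had an adjusted p under 0.05 in the higher direction. The median log2 fold change was 0.82 over the members and 0.03 over all genes. This comparison uses the HFD mice in which the members were chosen for being low, so its direction is not independent of that choice.

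None of the members passed the stricter rule, which 0.306% of all genes passed in the higher direction. By the unadjusted p from limma, 6 members were under 0.05, and 1 of those, Cnn1, had a fold change beyond the limit. The share of all genes by the unadjusted p is not given here, so nothing is read from these counts. With voom on the recovered reads 1 member passed the stricter rule. Myl9 was the member whose groups did not overlap, beside 2.07% of all genes in the higher direction. Its call held when any 1 mouse was left out, with log2 fold changes of 1.08 to 1.43, and was lost when the NC mice shared the estimate of the spread (adjusted p = 0.065). The Lmod1 call was lost without HFD 1 (adjusted p = 0.055) or HFD 5 (adjusted p = 0.053), by limma on the remaining mice, and also with all 3 groups in the fit (adjusted p = 0.15) or the epithelial list as covariate (adjusted p = 0.064). The Myh11 call was weaker still. It was lost without any one of HFD 1, HFD 3, HFD 4, HFD 5, HFD 7, SZ-A 1, SZ-A 3 and SZ-A 4, with limma adjusted p of at most 0.0997, and it also was lost with all 3 groups in the fit (adjusted p = 0.19) and with the epididymis and vas deferens list (adjusted p = 0.12) or the epithelial list (adjusted p = 0.16) as covariate. The replicate block for same-numbered mice, described further below, ended the Myh11 call as well.

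The largest differences belonged to the genes with the widest spread. Actg2 had a log2 fold change of 2.03 ± 1.06 (limma adjusted p = 0.17), which was 1.23 ± 0.84 without SZ-A 2, 1.35 ± 0.93 without SZ-A 7 and 0.16 ± 0.65 with the epididymis and vas deferens list as covariate. Cnn1 had 1.68 ± 0.76 (adjusted p = 0.12), and 0.90 ± 0.33 without SZ-A 7 (adjusted p = 0.066). Without that single mouse the median over the members was 0.57. The values for the others were 0.80 ± 0.35 for Mylk (adjusted p = 0.11), 0.57 ± 0.30 for Des (adjusted p = 0.18), 0.50 ± 0.36 for Acta2 (adjusted p = 0.32), 0.48 ± 0.22 for Smtn (adjusted p = 0.13) and 0.21 ± 0.17 for Tagln (adjusted p = 0.37). Smtn passed without SZ-A 2, at 0.63 ± 0.19 (limma adjusted p = 0.025).

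**Figure D4:**
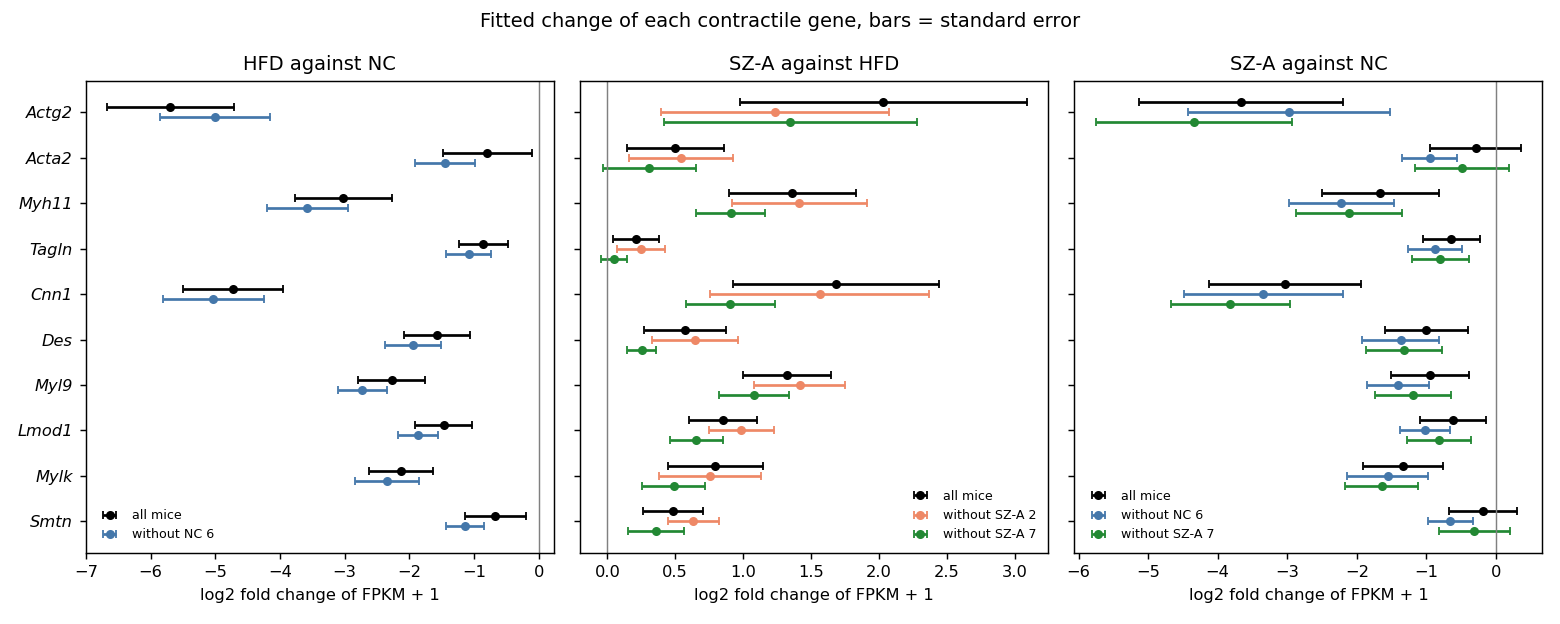
Log2 fold change of FPKM + 1 for each contractile gene in the 3 comparisons, with the standard error as bars, in all mice (black) and without the mouse named in each legend. All points lie below 0 in HFD against NC and above 0 in SZ-A against HFD, and Actg2 has the widest bars (2.03 ± 1.06 in SZ-A against HFD).

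SZ-A was also set against NC, which asks how far the treated mice were from mice that never ate the high-fat diet. All 10 members were lower in SZ-A than in NC mice, with a median log2 fold change of -0.98 against -0.0012 over the 14718 genes tested. None had a limma adjusted p under 0.05, beside 0.455% of all genes in the lower direction, and none passed the stricter rule, beside 0.0544%, while voom called 0. By the unadjusted p from limma 3 members were under 0.05, but the share of all genes is not given, so nothing is read from that. The farthest were Actg2 at -3.66 ± 1.47 (adjusted p = 0.19) and Cnn1 at -3.04 ± 1.09 (adjusted p = 0.14), and the nearest were Smtn at -0.19 ± 0.49 (adjusted p = 0.87) and Acta2 at -0.29 ± 0.65 (adjusted p = 0.84). Without SZ-A 7, Cnn1 reached -3.82 ± 0.85 (adjusted p = 0.024). With weights for the quality of each library, 8 members had an adjusted p under 0.05. Calls over all genes shifted as well under these weights. The stricter rule was passed by 349 genes, 59.9% of them higher, against 263 and 97.0% in the main fit. The share of all genes by adjusted p alone is not given for this setting, so the 8 are not read as particular to the members. For Actg2, Cnn1 and Mylk, 5 of the 7 SZ-A mice were below the lowest NC mouse. This comparison shares the NC mice with the one that chose the members.

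The cytoplasmic actins, which non-muscle cells use, went the other way from the members. Actb had 259 to 494 FPKM in NC, 940.4 to 1879 FPKM in HFD and 583 to 1757 FPKM in SZ-A mice, and Actg1 had 237 to 352, 439 to 882 and 256 to 490.1 FPKM. From NC to HFD their log2 fold changes were 1.73 ± 0.23 (limma adjusted p = 6.2e-05) and 1.25 ± 0.20 (adjusted p = 0.00027). From HFD to SZ-A, Actg1 fell by 0.81 on the log2 scale, with a standard error of 0.21 (adjusted p = 0.013), and Actb stood at -0.74 ± 0.26 (adjusted p = 0.055). Among the non-muscle myosin heavy chains, Myh9 was higher in HFD than in NC at 0.95 ± 0.19 (adjusted p = 0.0012), while Myh10 at -0.86 ± 0.23 (adjusted p = 0.0092) and Myh14 at -1.03 ± 0.27 (adjusted p = 0.0077) were lower, and Myh14 rose from HFD to SZ-A by 0.88 ± 0.26 (adjusted p = 0.027).

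The balance of isoforms within a mouse follows from these levels. In NC mice, Acta2 and Actg2 together made up 19.9% to 65.7% (median 41.0%) of the summed FPKM of 5 actins, and 19.9% to 55.0% (median 27.1%) without NC 6. In HFD mice this share was 1.75% to 13.1% (median 7.29%), and with SZ-A it was 5.04% to 32.0% (median 16.6%). Myh11 took 14.2% to 90.8% of the summed FPKM of 4 myosin heavy chains in NC mice, and 27.8% to 90.8% without NC 6. With the diet its share was 3.76% to 13.9%, and with SZ-A on top 10.6% to 66.2%. Without SZ-A 7 the highest SZ-A shares were 25.2% for the actins and 27.4% for Myh11. NC and HFD mice did not overlap in either share. These shares use the same FPKM values as the comparison that chose the members, so they too are a description.

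**Figure D5:**
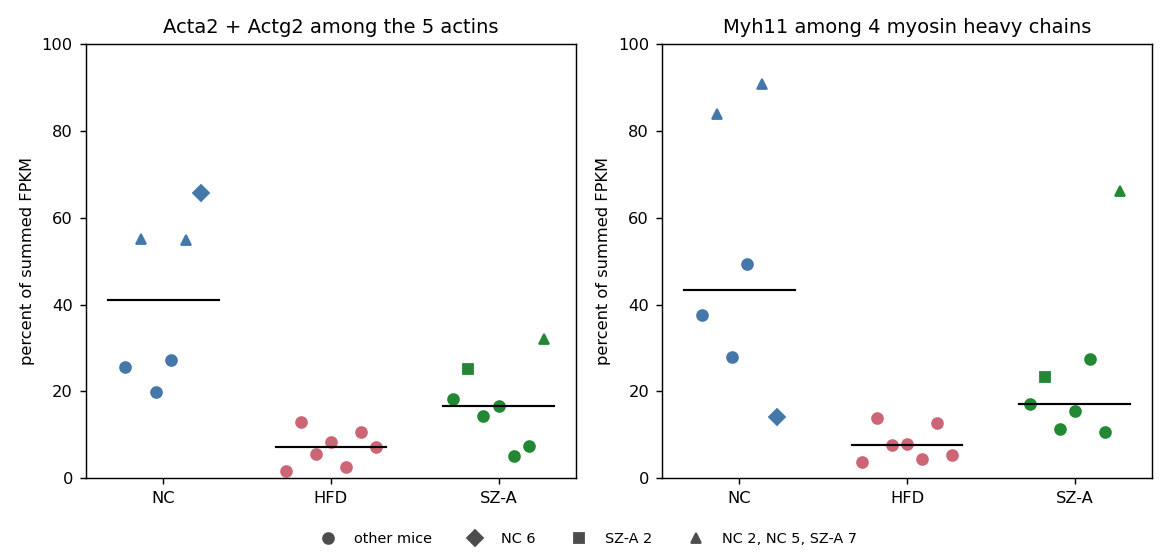
Percent of summed FPKM taken by Acta2 and Actg2 among 5 actins (left; with Acta1, Actb and Actg1) and by Myh11 among 4 myosin heavy chains (right; with Myh9, Myh10 and Myh14), 1 point a mouse and the median as a line. HFD mice lie between 1.75% and 13.1% on the left, below all 6 NC mice.

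Of 31 other genes of the contractile apparatus, 0 rose and 3 fell between HFD and SZ-A by adjusted p, beside 9.47% and 13.3% of all genes, with a median log2 fold change of 0.15. The 3 were Flna (filamin A) at -0.98 ± 0.15 (limma adjusted p = 0.00096), Actn1 (alpha-actinin) at -0.93 ± 0.15 (adjusted p = 0.0012) and Rhoa at -0.58 ± 0.14 (adjusted p = 0.0084), all genes that many cell types use. Among the most highly expressed, Myl6 stood at 0.27 ± 0.27 (adjusted p = 0.48) and Csrp1 at 0.39 ± 0.20 (adjusted p = 0.16). Tpm2, the beta-tropomyosin of smooth muscle, had 5.52 to 8.80 FPKM in HFD and 7.09 to 86.0 FPKM in SZ-A mice, with a log2 fold change of 0.78 ± 0.42 (adjusted p = 0.19).

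Smooth muscle genes are switched on by serum response factor, the product of Srf, with its partners of the myocardin family. Srf changed in the opposite direction to the members. It was higher in HFD than in NC mice, by 0.44 ± 0.14 (limma adjusted p = 0.024), and fell from HFD to SZ-A by 0.41 on the log2 scale, with a standard error of 0.13 (adjusted p = 0.031). Its levels were 10.9 to 18.2 FPKM in NC, 17.1 to 22.3 FPKM in HFD and 11.0 to 20.1 FPKM in SZ-A mice, a narrow range beside that of the members. Myocd was not in the table. Of the 16 regulators tested, 0 rose and 5 fell by adjusted p in SZ-A against HFD, beside 9.47% and 13.3% of all genes. The 5 were Srf, Mrtfb, Mef2c, Mef2d and Prrx1, and Klf4 stood at -0.05 ± 0.21 (limma adjusted p = 0.88).

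Serum response factor binds the CArG box, a run of A and T between CC and GG, on either strand. In RefSeq promoters of GRCm38.p6, from 250 bases before the start site to 50 after it, 7 of the 10 members were present, and Actg2, Myh11 and Tagln were not. Myl9 held the box, at 161 bases before the start, as did 1.63% of the 32851 promoters. With a single G or C allowed in the core, Myl9 held a second box at 99 bases before the start and Acta2 held 2, CCCTATATGG at 84 and CCTTGTTTGG at 34 bases before it, as did 9.98% of all promoters. A match is a description of the letters only. The Myl9 stretch is shown because Myl9 was the member with the clearest difference between SZ-A and HFD mice, with both boxes in capitals.
Myl9, chr2:156775264-156775383, plus strand, GRCm38.p6: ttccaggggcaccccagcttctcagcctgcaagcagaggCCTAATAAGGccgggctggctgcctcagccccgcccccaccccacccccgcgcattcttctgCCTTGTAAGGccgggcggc

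Markers of other cell types were set beside the members for SZ-A against HFD, as counts of genes that rose and fell by limma adjusted p. Over all genes tested, 9.47% rose and 13.3% fell by this rule, and several of the short lists lie near these shares. Not every gene named after a count was called. Fibroblast genes gave 0 and 12 of 13, with Col3a1 at -1.89 ± 0.25, Lum at -1.94 ± 0.25, Col1a1 at -1.63 ± 0.26, Dcn at -0.82 ± 0.25 and Dpt at -0.64 ± 0.19. Macrophage genes gave 0 and 9 of 10, with Adgre1, the F4/80 gene, at -1.86 ± 0.25, Cd68 at -1.64 ± 0.32, Fcgr1 at -1.56 ± 0.21, Mrc1 at -1.54 ± 0.18, C1qb at -1.46 ± 0.29 and C1qa at -1.18 ± 0.29. Pericytes, which share contractile genes with smooth muscle, gave 2 and 3 of 11. Pdgfrb at -0.73 ± 0.16 and Anpep at -1.56 ± 0.32 were among those that fell. Rgs5 at 0.09 ± 0.29 was not called (limma adjusted p = 0.85). Endothelial genes gave 3 and 0 of 12. The most expressed of that list were not among those called. They were Cldn5 at 1.23 ± 0.50 (limma adjusted p = 0.089), Cdh5 at 0.13 ± 0.32 (adjusted p = 0.79) and Eng at 0.36 ± 0.27 (adjusted p = 0.34). Adipocyte genes gave 2 and 0 of 10, with Cfd (adipsin) at 2.63 ± 0.52 and Retn (resistin) at 2.19 ± 0.46, while Fabp4 stood at 0.89 ± 0.34 and Cidec at 0.87 ± 0.40. The epididymis and vas deferens list gave 1 and 0 of 6, with Adgrg2 at 1.92 ± 0.60, Clu at 1.63 ± 0.85, Ly6g5b at 1.32 ± 1.02 and Npc2 at 0.29 ± 0.19. The epithelial list gave 1 and 0 of 4, with Spint2 at 2.18 ± 0.54, Krt18 at 1.70 ± 1.12 and Krt19 at 0.42 ± 0.75. Skeletal muscle genes gave 1 and 0 of 5, with Mylpf at 0.64 ± 0.19, Myl1 at 0.93 ± 0.33 and Acta1 at -0.22 ± 0.37, and mesothelial genes gave 0 and 0 of 3, Rspo1 at -0.04 ± 0.29, Nkain4 at -0.70 ± 0.45 and Lrrn4 at -0.69 ± 0.29. Their part in the contractile values was not tested.

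The genes most like the members over the 20 mice, after the group means were subtracted, differed between Actg2 and the members together. With Actg2 alone the highest Pearson correlations of log2(FPKM + 1) outside the lists were those of Pgrmc1 (0.92), Sytl1 (0.91), Plac8 (0.91), Faah (0.90) and Ano1 (0.90). Pgrmc1, a membrane component that binds progesterone and heme, had 852 FPKM in NC 6, 509 FPKM in NC 5, 463 FPKM in NC 2, 244 FPKM in SZ-A 2 and 213 FPKM in SZ-A 7, with medians of 350.1 FPKM in NC, 84.1 FPKM in HFD and 105 FPKM in SZ-A mice. Ano1 is a calcium-activated chloride channel of smooth muscle, pacemaker cells and epithelia, and had 14.9 FPKM in NC 6, 10.9 FPKM in NC 2 and 10.8 FPKM in NC 5, with a median of 8.35 FPKM in NC and of 3.11 FPKM over all mice. With the mean of the 10 members the highest were Fbxl22 (0.96), Jph2 (0.95), Scin (0.94), Hpgd (0.94) and Asb2 (0.94). Jph2, a junctophilin that couples calcium stores to the membrane in muscle, had 21.3 FPKM in NC 2 and 11.2 FPKM in SZ-A 7 but 0.355 FPKM in NC 6. All 20 points of these correlations share their libraries with one another's genes, and a few mice carry most of the spread.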

How the data were processed

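Poly(A) RNA of 6 NC, 7 HFD and 7 SZ-A mice was sequenced as paired-end reads. According to their processing notes, the authors used HISAT2 and the mouse build GRCm38, and the deposited values are FPKM for 14776 genes, all above 0 in every mouse. The submitters' processing notes name featureCounts 1.5.0-p3 for counting, and whether it used strand is not given in the sources used here. The study gives 7 mice a group for the sequencing, and the labels give 6 NC mice. Symbols and exons came from GENCODE M21, which held 14770 of the genes. Reads behind the FPKM, recovered from the step a single read makes, were whole within 0.01 for 95.9% to 96.3% of the values under 1000 reads and summed to between 13567667 and 19388628 a mouse. They served only voom and the statements on depth.

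Groups were taken from the labels. Each pair of groups was fitted by limma 3.58.1 (R 4.3.3, lmFit and eBayes with trend) on log2(FPKM + 1). Genes had to average 0.1 FPKM or more over the mice compared, and p-values had Benjamini-Hochberg adjustment over all of them. The rules were an adjusted p under 0.05 alone and a stricter rule with a log2 fold change beyond 1.5 added. The p-values set the difference between groups against the spread between these mice, each taken as independent. Of the pairs of mice, 0 had identical values, which by itself does not show independence. On simulated data for SZ-A against HFD with 14614 genes, 199 of 200 genes changed by a log2 fold change of 2 were called, and 0 others. The changed genes were drawn only from well-expressed genes with a small spread. This recovery therefore does not apply to members such as Actg2 and Cnn1, whose SD of log2(FPKM + 1) in SZ-A mice was 3.06 and 2.18. Named genes were all members, Srf, Myocd, the cytoplasmic actins and myosin heavy chains, the 3 most expressed detected genes of each other list with up to 4 past the stricter rule in SZ-A against HFD, and the 5 genes outside the lists most correlated with Actg2 and with the mean of the members. Genes beyond this rule (Tpm2, Actn1, Rhoa, Mrtfb, Mef2c, Prrx1, Teddm2, Adipoq and those sharing their 3 highest mice with the members) were named after their values were seen. The members and lists were chosen with earlier results of these data known. Promoters came from the RefSeq table of GRCm38.p6. Python 3.11.15, pandas 2.3.3, NumPy 2.4.6, Biopython 1.88 and matplotlib 3.10.9 were used.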

Additional observations from a re-analysis of the deposited data

Results flagged for a closer look

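In the SZ-A group, replicate 7 was far above the other 6 mice in 8 of the 10 contractile genes, its gap to the next mouse exceeding Dixon's 95% limit for groups of this size. Its levels were 395 FPKM of Acta2, 97.2 FPKM of Myh11, 2.42 FPKM of Tagln, 128 FPKM of Cnn1, 57.2 FPKM of Des, 197 FPKM of Myl9, 9.56 FPKM of Lmod1 and 39.7 FPKM of Mylk. Of the 30 combinations of gene and group that were examined, 8 were singled out in this way, all of them in this mouse. The rule singles out about 1 in 20 by chance only for separate, normally distributed values. Here it was applied to FPKM without logs, in genes that vary together. The 8 therefore describe 1 mouse and cannot be set against that rate. Actg2 was not among them because SZ-A 2 stood higher still, at 205.5 FPKM. The same mouse had 168 FPKM of Krt18, the highest of the SZ-A group, and its part in these values was not tested.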

How the results depend on the processing

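In SZ-A against HFD, the count of members past the stricter rule, 0 as reported, was 1 with a pseudocount of 0.1, 2 with 0.01 and 1 with voom. The count with an adjusted p under 0.05, 3 as reported, was 0 with all 3 groups in the fit and 1 with the epithelial list as covariate, and leaving out each mouse in turn gave 1 (without HFD 1 or HFD 5) to 4 (without SZ-A 2). In HFD against NC, both counts fell to 0 with the epithelial covariate, from 6 and 7, and leaving out a mouse gave 5 to 7 and 6 to 10, the 10 without NC 6. In SZ-A against NC, where both were 0, they were 1 and 1 with all 3 groups, 6 and 8 with array quality weights, and 0 to 1 with a mouse left out, the 1 (Cnn1) without SZ-A 7. Those weights also shifted the calls over all genes, as given above. In the same comparison, leaving out a mouse took Acta2 from -0.95 to 0.07 (log2) and Smtn from -0.66 to 0.06, and both changed sign without NC 2 or NC 5, to 0.0035 and 0.030 without NC 2 and 0.067 and 0.056 without NC 5. The cause of these changes was not tested. Calls by the stricter rule over all genes, in both directions, changed too. In SZ-A against HFD they were 127 in the main fit and 106 with all 3 groups. In HFD against NC they were 1172 in the main fit, 917 with the epithelial covariate and 1086 without NC 6. In SZ-A against NC they were 263 in the main fit and 335 with all 3 groups. Shares by adjusted p alone are not given here, so the counts are not read as particular to the members.

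Same-numbered mice did not deviate together as a rule. Correlations of their deviations ran from -0.39 to 0.37 in SZ-A against HFD and passed 0.1 in 3 of 7 pairs. They ran from -0.28 to 0.30 in HFD against NC and from -0.41 to 0.58 in SZ-A against NC. The highest, 0.58, was that of number 4. The number was also used as a replicate block. Members with an adjusted p under 0.05 were then 2 in SZ-A against HFD, 6 in HFD against NC and 1 in SZ-A against NC. The 2 were Myl9 and Lmod1, with Myh11 at an adjusted p of 0.068 by limma. Members past the stricter rule were 0, 5 and 1. Over all genes that rule called 123, 1117 and 116 with the block, against 127, 1172 and 263 in the main fit. Shares by adjusted p alone are not given for the block, so these counts are not read as particular to the members.

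Over the 12 lists beside the members, 48 genes had an adjusted p under 0.05 in SZ-A against HFD. Of these, 12 were fibroblast and 9 macrophage genes. Over all genes tested, 9.47% rose and 13.3% fell by this rule. The count for the lists was 54 without SZ-A 2, an alternative added after seeing the data. The share of all genes is not given for that alternative, so nothing is read from the change. Leaving out NC 6 and SZ-A 2 together, also added later, left the counts of SZ-A against NC at 0. Of all genes called by the stricter rule in SZ-A against HFD, 35.4% of 127 were higher as reported, 56.1% of 337 with a pseudocount of 0.1, 60.4% of 485 with 0.01 and 64.2% of 450 with voom. Voom also moved the median of all genes in HFD against NC to -0.15. A floor of 1 FPKM on the mean dropped Tagln from SZ-A against HFD. For the fold changes of single members, direction and call stayed as reported in 248 of the values under another setting in SZ-A against HFD, while 17 lost the call and 4 gained it, and in SZ-A against NC 255 stayed, 11 gained a call and 4 changed sign. Depth limits Actg2, Cnn1 and Tagln in HFD mice, where the lowest values rest on 5, 6 and 11 reads.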

Other observations

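The contractile genes were not lower in equal measure, and the proportions among them differed between groups. The ratio of Myh11 to Acta2, both in FPKM, was 0.0992 to 0.382 in NC mice, 0.0262 to 0.0528 in HFD mice and 0.0432 to 0.246 in SZ-A mice, so that every NC mouse had more Myh11 for its Acta2 than any HFD mouse, NC 6 with a ratio of 0.272 included. The ratio of Myl9 to Acta2 ran from 0.462 to 1.30 in NC mice, from 0.148 to 0.350 in HFD mice and from 0.278 to 0.933 in SZ-A mice, and NC and HFD mice were again apart. SZ-A 5 had the highest of the SZ-A values, with 110.2 FPKM of Myl9 beside 118 FPKM of Acta2. Without SZ-A 7 the highest ratio of Myh11 to Acta2 in SZ-A mice was 0.0934. These ratios were computed after the levels had been seen, from the values that chose the members in HFD against NC, and no test was made of them.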
